A study of Mus musculus with 6 samples.

Results

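Described here are 7 selenoprotein genes in liver sinusoidal endothelial cells, the fenestrated lining cells of the liver's capillaries: Sepp1, Gpx1, Gpx3, Gpx4, Txnrd1, Txnrd2 and Dio1. They were chosen by gene name, as some of the selenium-dependent antioxidant, transport and hormone-activating genes of the table. The choice was made with the PHx against Sham contrast in view. It was also known that Sepp1 was the most counted gene in the Sham libraries. The genes described are 7 of the 48897 genes in the deposited table, and all 7 passed the filter on low counts, as did 19033 genes in all. Because the contrast was known when they were chosen, their differences between the groups are given as descriptions with standard errors. Which of them passed the test over all genes is stated beside the share over all genes. It is named again where lists and settings are compared, and it supports nothing.

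The cells came from C57BL/6 mice aged 7 to 8 weeks and had been captured on CD146, which endothelial cells carry on their surface, with magnetic beads. One group had undergone partial hepatectomy (PHx), in which part of the liver is cut away, and the other a sham operation, and both were sampled on day 14. Each group held 3 RNA-seq libraries, numbered 1, 3 and 4. The labels name no genetic modification, and they do not say whether the libraries came from separate animals or from pools, so the spread behind each p-value may be only technical.

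The libraries held between 38765116 and 51888481 counts. 13 markers of sinusoidal endothelial cells summed to 38310, 38290 and 36970 CPM, counts scaled to library size, in Sham and to 23460, 31390 and 19690 CPM in PHx. The label was therefore borne out by abundant markers in every library, at a lower summed level in each PHx library. Of the 13 markers, 11 had a log2 fold change below 0 and 2 above it, Lyve1 (0.16) and Mcam (0.11). edgeR called 0 of the 13 (adjusted p under 0.05), against 0.862% of the 19033 genes tested in either direction. At an unadjusted p under 0.05 in edgeR there were 9, against 12.7% of all genes tested. 12 stellate cell markers summed to between 1771 and 2291 CPM in Sham and to between 5265 and 6712 CPM in PHx. Of these 12, edgeR called 8 higher (adjusted p under 0.05), against 0.846% of the 19033 genes tested. 20 hepatocyte markers ranged from 1005 CPM in PHx 3 to 2666 CPM in Sham 3, and 10 markers of Kupffer cells, the liver's macrophages, from 165.2 CPM in Sham 3 to 585.7 CPM in Sham 1. PHx 4 stood apart in its 12 neutrophil markers, at 4968 CPM against 35.16 to 756.1 CPM in the other libraries. In bulk RNA, fewer cells of a type and less RNA per cell cannot be told apart.

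Selenoproteins contain selenocysteine, an amino acid built from selenium that is inserted at a UGA codon which would otherwise end translation. The insertion needs a hairpin in the messenger RNA, a binding protein for that hairpin and a dedicated elongation factor. In the liver, selenoprotein P (Sepp1) is secreted to carry selenium to other tissues, glutathione peroxidases (Gpx1, Gpx3 and Gpx4) reduce hydrogen peroxide and lipid hydroperoxides, thioredoxin reductases (Txnrd1 and Txnrd2) keep thioredoxin reduced, and Dio1 removes iodine from thyroid hormones.

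The codon that defines the family was read from the GENCODE M21 annotation of GRCm38 (mm10), since it is the feature that the 7 genes share. Each line below gives the coding strand around a selenocysteine codon, 5′ to 3′, with that codon in capitals and the other coding bases in lower case.
Gpx1: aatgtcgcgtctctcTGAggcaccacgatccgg
Gpx3: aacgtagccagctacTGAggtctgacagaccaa
Gpx4: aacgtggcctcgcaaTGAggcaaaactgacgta
Txnrd1: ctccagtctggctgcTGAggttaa
Txnrd2: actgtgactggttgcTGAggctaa
Dio1: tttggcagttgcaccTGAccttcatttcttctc
Sepp1, first of 10: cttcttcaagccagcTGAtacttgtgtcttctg

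The place of the codon differed between the enzyme classes. In Gpx1 it lay in exon 1 of 2 (chr9:108339451-108339453, plus strand) as codon 47, with 154 codons left before the stop. In Gpx3 it lay in exon 2 of 5 (chr11:54907256-54907258, plus strand) as codon 73, and in Gpx4 in exon 3 of 7 (chr10:80054737-80054739, plus strand) as codon 129. Exon and codon numbers are those of a single annotated transcript per gene, for Gpx4 the transcript Gpx4-201 of 254 codons (stop included). Other transcripts of a gene, in which the codon's number can differ, were not read. Within the 33 bases shown, Gpx1 and Gpx3 shared 16 bases, Gpx1 and Gpx4 shared 19, and Gpx3 and Gpx4 shared 20. Each count includes the 3 bases of the selenocysteine codon, on which the windows were aligned. Across classes, Gpx1 shared 11 of 33 bases with Dio1 and 11 with the first window of Sepp1. The reductases carried it at the very end. It was codon 498 of Txnrd1 (chr10:82896037-82896039, plus strand, exon 14 of 14) and codon 526 of Txnrd2 (chr16:18477772-18477774, plus strand, exon 17 of 18), each followed by 1 further codon and the stop. Their windows agreed at 16 of 24 bases, a count that includes the selenocysteine codon and the stop codon. In Dio1 the codon was number 126 (chr4:107297700-107297702, minus strand, exon 2 of 4).

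Sepp1 was the exception, with 10 selenocysteine codons. The first was codon 59 in exon 2 of 5 (chr15:3274848-3274850, plus strand), in the part that encodes the redox site near the protein's start, and the other 9 lay in exon 5. The final 7 crowded into codons 318 to 377 of 381 (stop included), a run of 180 bases shown here because these codons are what let the protein carry selenium.
Sepp1, codons 318 to 377: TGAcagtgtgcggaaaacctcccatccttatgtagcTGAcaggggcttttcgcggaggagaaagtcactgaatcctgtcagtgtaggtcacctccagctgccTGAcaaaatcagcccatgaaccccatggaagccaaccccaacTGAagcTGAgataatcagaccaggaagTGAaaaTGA

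Sepp1 (chr15:3270767-3280508, plus strand) was the most abundant selenoprotein transcript in every library. Its level was 9693, 11210 and 12550 CPM in Sham 1, 3 and 4, and 6120, 10170 and 5127 CPM in PHx 1, 3 and 4. PHx 1 and PHx 4 lay below every Sham library, while PHx 3 lay among the Sham values, so the groups overlapped. The Sham mean was 11150 ± 1431 CPM and the PHx mean 7139 ± 2672 CPM (SD, n = 3 libraries each), a log2 fold change of -0.64 ± 0.29 (SE). Without PHx 3 the log2 fold change was -0.99, and without both libraries numbered 4 it was -0.36.

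Sepp1 alone took 0.944%, 1.12% and 1.24% of all counts in Sham 1, 3 and 4. It took 0.652%, 1.002% and 0.508% in PHx 1, 3 and 4. By count it ranked first of all genes in each Sham library, which was part of how the genes were chosen, and had rank 3, 1 and 2 in PHx 1, 3 and 4. Per length (RPKM, counts scaled by gene length and library size) it also ranked first in each Sham library and in PHx 3, and it ranked 3 and 5 in PHx 1 and PHx 4, where the mitochondrial COX1 was at the top.

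Among the 23 selenoprotein genes matched in the table, Sepp1 held 90.9%, 92.0% and 92.2% of the selenoprotein counts in Sham and 85.4%, 90.5% and 79.5% in PHx. Per length it stood 30.8, 45.7 and 45.8 times above the next selenoprotein in Sham, and 20.98, 36.7 and 16.5 times above it in PHx. Counting each transcript by its RPKM and its annotated number of selenocysteine codons, Sepp1 held 98.7 ± 0.107% of such codons in Sham RNA and 97.5 ± 1.05% in PHx RNA (SD, n = 3). That share describes transcripts and says nothing of translation.

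The Sepp1 level and the summed endothelial markers were both lowest in PHx 4 and PHx 1. Per 1000 CPM of the 13 endothelial markers, Sepp1 stood at 253, 292.9 and 339.5 CPM in Sham and at 260.9, 323.9 and 260.4 CPM in PHx, so on this scale the 2 groups covered nearly the same range (295 ± 43.3 against 282 ± 36.6, SD, n = 3). Hepatocytes are the best known source of selenoprotein P, and Sepp1 exceeded the transcript of albumin (Alb), a plasma protein that hepatocytes secrete, in every library. The RPKM ratio of Sepp1 to Alb was 12.3, 9.37 and 10.96 in Sham and 6.79, 21.4 and 5.62 in PHx. With the hepatocyte markers as a covariate the log2 fold change of Sepp1 was -0.94, and with the neutrophil markers it was -0.39. The part of the endothelial markers in the difference was not tested in a fit.

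**Figure D1:**
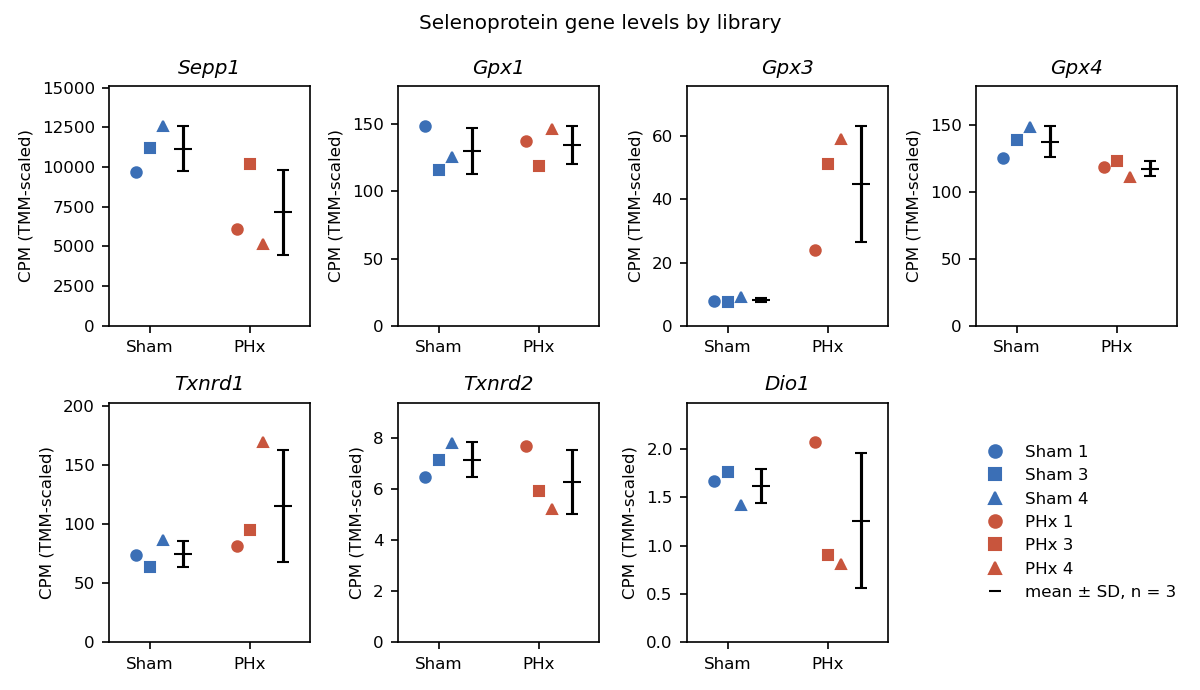
Level of each of the 7 genes in each library, in TMM-scaled CPM on linear axes that start at 0. Points are the 3 Sham (blue) and 3 PHx (red) libraries, with circles, squares and triangles for numbers 1, 3 and 4, and black marks are mean ± SD. The Gpx3 points separate, from 9.08 CPM or less in Sham to 24.1 CPM or more in PHx, and the Gpx4 points separate narrowly in the other direction.

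Gpx3 (chr11:54902854-54910382, plus strand), the glutathione peroxidase that is secreted into extracellular fluid, differed most among the 7 genes. Its level was 7.92, 7.61 and 9.08 CPM in Sham 1, 3 and 4, and 24.1, 51.3 and 59.0 CPM in PHx 1, 3 and 4. All PHx libraries lay above all Sham libraries, and PHx 1 was the lowest of the 3. The means were 8.20 ± 0.771 and 44.8 ± 18.4 CPM (SD, n = 3), a log2 fold change of 2.45 ± 0.33 (SE), or 5.46-fold.

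These Gpx3 levels rested on 299, 394 and 447 counts in Sham and on 1246, 2505 and 2837 counts in PHx. Its RPKM rank among all genes moved from between 7284 and 7856 in Sham to 3832, 1766 and 1609 in PHx 1, 3 and 4. Over the settings tried, the log2 fold change of Gpx3 lay between 2.20 and 2.74.

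Markers of the cells around the sinusoid, the stellate and smooth muscle cells, were higher in the same PHx libraries as Gpx3. The 12 stellate markers summed to 2291, 1933 and 1771 CPM in Sham and to 5265, 6712 and 6405 CPM in PHx. Per 1000 CPM of these markers Gpx3 stood at 3.46, 3.94 and 5.12 CPM in Sham and at 4.57, 7.64 and 9.22 CPM in PHx, and the groups overlapped. Per 1000 CPM of 6 smooth muscle markers it stood at 22.9, 26.1 and 37.2 CPM in Sham and at 34.3, 70.5 and 58.4 CPM in PHx, again with overlap. Per 1000 CPM of the hepatocyte markers the groups did not overlap, with 2.86 to 3.95 CPM in Sham and 10.2 to 51.0 CPM in PHx. Nor did they per 1000 CPM of the endothelial markers, the labelled cell type, with 0.199 to 0.246 CPM in Sham and 1.03 to 2.998 CPM in PHx. The part of stellate and smooth muscle cell RNA in the Gpx3 difference was not tested.

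**Figure D2:**
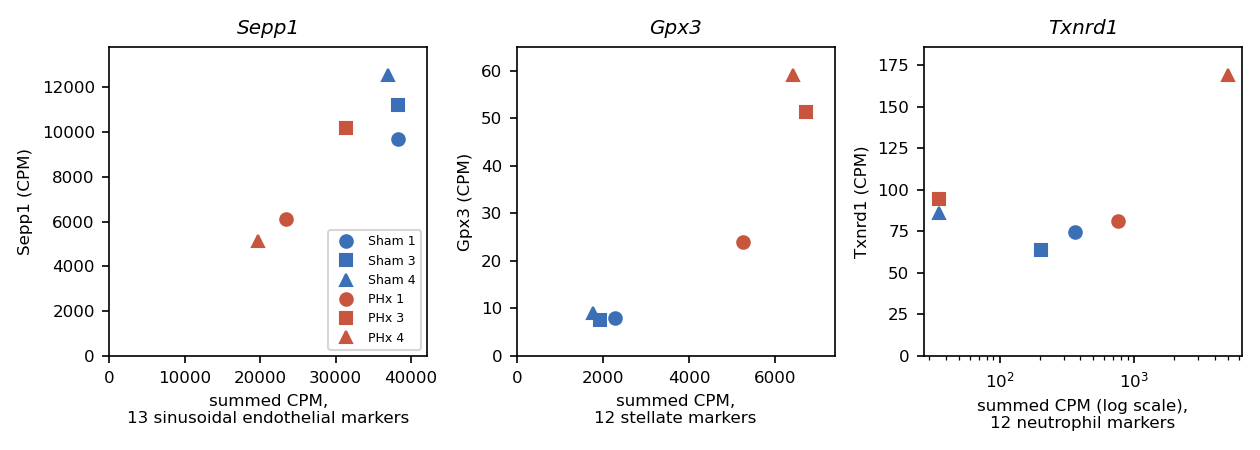
Levels of Sepp1, Gpx3 and Txnrd1 in each of the 6 libraries (vertical axes, CPM) against the summed CPM of 13 sinusoidal endothelial, 12 stellate and 12 neutrophil markers (horizontal axes, the neutrophil axis on a log scale). Sepp1 is low in the 2 PHx libraries with the fewest endothelial marker counts, Gpx3 is high in the 3 PHx libraries, which all hold over 5000 CPM of stellate markers, and the highest Txnrd1 point is PHx 4, at 4968 CPM of neutrophil markers.

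Gpx1 (chr9:108339080-108340342, plus strand), the abundant peroxidase of the cytosol and mitochondria, stood at 148.5, 115.6 and 125.3 CPM in Sham and at 137.6, 118.8 and 146.4 CPM in PHx. In these CPM every PHx value lay between the lowest and the highest Sham value. In the deposited RPKM, PHx 1 (140.2) and PHx 4 (138.8) lay just above the highest Sham library, Sham 1 (138.4), and the groups still overlapped. The log2 fold change of Gpx1 was 0.05 ± 0.13 (SE), and its sign turned in 5 of 16 alternatives, with values between -0.06 and 0.13.

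Gpx4 (chr10:80047166-80056439, plus strand), the peroxidase that reduces lipid hydroperoxides within membranes, stood at 125.3, 138.3 and 148.7 CPM in Sham and at 118.5, 122.8 and 111.0 CPM in PHx. All PHx libraries lay below all Sham libraries, with a narrow gap between PHx 3 and Sham 1. In the deposited RPKM, which use no TMM scaling, PHx 1 (82.25) lay above Sham 1 (79.54), so on that scale the groups overlapped. The log2 fold change was -0.23 ± 0.10 (SE), from 137 ± 11.7 to 117 ± 5.94 CPM (SD, n = 3), and it kept its sign in 16 of 16 alternatives. The table also holds pseudogenes that resemble Gpx4 and Gpx2, and reads shared between such copies could be split between them.

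Levels per length set the 3 peroxidases side by side. In Sham, Gpx1 stood at 122 ± 14.4 RPKM, Gpx4 at 88.5 ± 8.31 RPKM and Gpx3 at 5.34 ± 0.510 RPKM (SD, n = 3). In PHx the order was the same, at 130 ± 15.9, 77.6 ± 5.36 and 29.6 ± 11.3 RPKM. The RPKM ratio of Gpx1 to Gpx3 was 27.2, 22.1 and 20.1 in Sham, against 8.31, 3.36 and 3.60 in PHx, so Gpx3 stayed the least abundant of the 3 in every library while its distance to Gpx1 was smaller in each PHx library.

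Txnrd1 (chr10:82833951-82897724, plus strand), the thioredoxin reductase of the cytosol and a known target of the oxidative stress factor NRF2, stood at 74.3, 63.8 and 86.2 CPM in Sham and at 81.4, 94.6 and 168.9 CPM in PHx. PHx 4 was far above the other 5 libraries, and PHx 1 lay within the Sham range. In the deposited RPKM, PHx 1 (21.57) lay just above Sham 4 (21.24), so on that scale the groups did not overlap. The log2 fold change was 0.62 ± 0.28 (SE), from 74.8 ± 11.2 to 115 ± 47.2 CPM (SD, n = 3), and without PHx 4 it was 0.24. PHx 4 was also the library with the most neutrophil marker counts, and with those markers as a covariate the log2 fold change of Txnrd1 was 0.41. The deposited counts for Txnrd1 may share reads with Eid3, which lies within it on the same strand and had a mean of 171.8 counts.

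Txnrd2 (chr16:18426417-18479073, plus strand), the thioredoxin reductase of mitochondria, stood at 6.46, 7.15 and 7.82 CPM in Sham and at 7.68, 5.94 and 5.22 CPM in PHx. PHx 1 was among the Sham values and the other two PHx libraries were below them, for a log2 fold change of -0.19 with an SE of 0.22. Without both libraries numbered 4 it was -0.01. The use of strand in counting is not given in the sources used here, so the Txnrd2 values may hold reads from the opposite strand.

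The RPKM ratio of Txnrd1 to Txnrd2 was 5.45, 4.23 and 5.23 in Sham, and 5.02, 7.55 and 15.3 in PHx 1, 3 and 4. The cytosolic enzyme's transcript was thus the more abundant in every library, and PHx 4 had the widest gap between them.

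Dio1 (chr4:107291465-107307168, minus strand), the deiodinase that activates thyroxine in liver, was the least abundant of the 7. It had 63, 91 and 70 counts in Sham and 107, 44 and 39 counts in PHx, or 1.67, 1.76 and 1.42 CPM and 2.07, 0.900 and 0.812 CPM. PHx 1 was the highest of all libraries and PHx 3 and PHx 4 were the lowest, so the groups overlapped. The log2 fold change was -0.36 ± 0.45 (SE). It was -0.92 without PHx 1, and -0.12 without PHx 4.

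Dio1 is best known from hepatocytes, and it was set beside their markers. Per 1000 CPM of the 20 hepatocyte markers it stood at 0.832, 0.660 and 0.616 CPM in Sham and at 0.873, 0.896 and 0.326 CPM in PHx. On this scale PHx 3 was the highest library, although it was among the lowest in CPM, and PHx 4 remained the lowest. With the hepatocyte markers as a covariate the log2 fold change of Dio1 was -0.14.

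Of the 7 genes, 1 (Gpx3) was past an adjusted p of 0.05 in edgeR's quasi-likelihood test and 6 were not, against 0.862% of the 19033 genes tested in either direction and 0.846% of them in the upward direction. In 2 of the 7 the groups did not overlap, with Gpx3 above and Gpx4 below in PHx, against 20.5% of all genes tested. Gpx3 was past that threshold in 7 of 16 alternatives and not in the other 9. Nothing is read from these counts, since the genes were selected on this contrast. The median log2 fold change over all genes tested was 0.03.

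**Figure D3:**
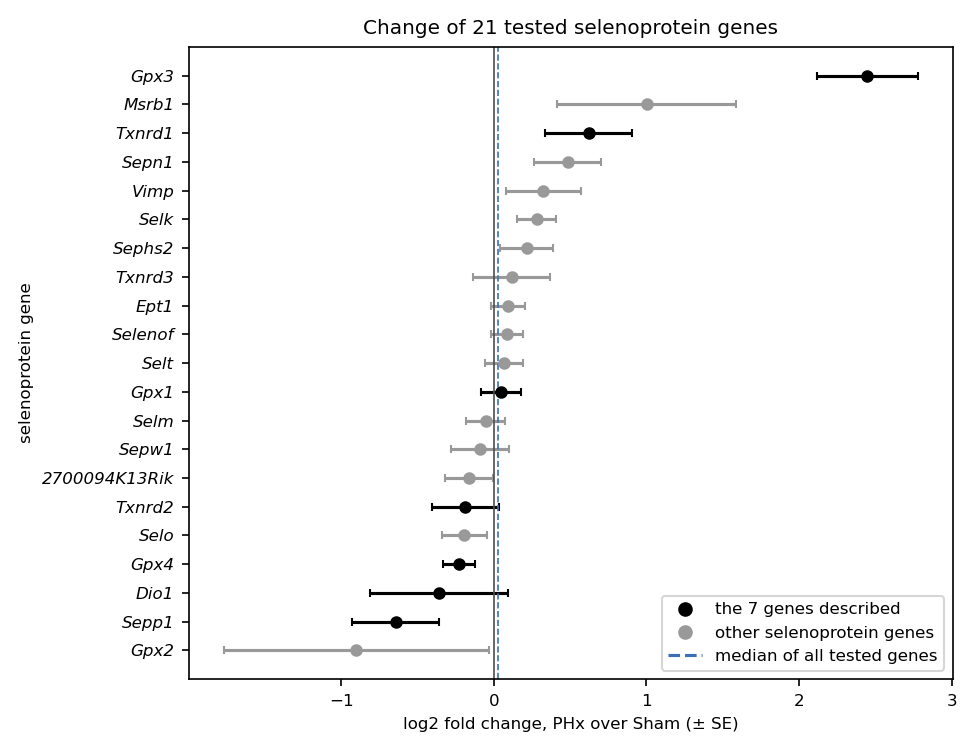
Log2 fold change of each selenoprotein gene tested, PHx over Sham (horizontal axis), with bars of 1 SE and n = 3 libraries per group. Gpx3 lies at 2.45, apart from the other genes, which lie between -0.90 (Gpx2) and 1.001 (Msrb1).

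The other selenoprotein genes gave the setting. Of 24 listed, 23 were matched in the table and 21 were tested, among them the 7 above. Dio2 and Dio3, the other deiodinases, did not pass the filter on low counts. Besides Gpx3, none of the 20 others was past an adjusted p of 0.05 in edgeR or DESeq2, and none was at an unadjusted p under 0.05 in edgeR. Over all 19033 genes tested in edgeR, 164 (0.862%) were past an adjusted p of 0.05. An unadjusted p under 0.05 was held by 2410 (12.7%). The counts at these thresholds in the lists below, counts of 0 among them, stand beside those shares. The 21 log2 fold changes had a median of 0.07, with 12 above 0 and 9 below.

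Msrb1, a methionine sulfoxide reductase, had the next highest value after Gpx3, with a log2 fold change of 1.001 ± 0.589 (SE, edgeR adjusted p = 0.527). It stood at 24.5, 25.3 and 20.4 CPM in Sham and at 35.2, 17.2 and 87.9 CPM in PHx. PHx 4 was high and PHx 3 was the lowest of all libraries. Without PHx 4 its log2 fold change was 0.16, and with the neutrophil markers as a covariate it was 0.03. Selk, a selenoprotein of the endoplasmic reticulum membrane, stood at 57.0, 53.6 and 63.0 CPM in Sham and at 63.9, 65.9 and 80.9 CPM in PHx. Its PHx libraries all lay above the Sham libraries, with a log2 fold change of 0.28 ± 0.13 (SE, edgeR adjusted p = 0.408).

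The remaining selenoproteins of the endoplasmic reticulum gave log2 fold changes between -0.05 and 0.48. Sepn1, which takes part in calcium handling there, had a log2 fold change of 0.48 (edgeR adjusted p = 0.420), and Vimp, part of the machinery that removes misfolded proteins, one of 0.32 (adjusted p = 0.606). Selenof stood at 0.09, Selt at 0.07 and Selm at -0.05, with edgeR adjusted p of 0.752, 0.854 and 0.890. Ept1, which makes phosphatidylethanolamine, was at 0.09 (adjusted p = 0.750). Sephs2, which is not a protein of the endoplasmic reticulum, makes the selenium donor for selenocysteine and is itself a selenoprotein. Its log2 fold change was 0.21 (edgeR adjusted p = 0.625).

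In the other compartments, Txnrd3 had a log2 fold change of 0.12, Sepw1 one of -0.09 and Selo, a mitochondrial protein, one of -0.19, with edgeR adjusted p of 0.875, 0.867 and 0.603. 2700094K13Rik, which encodes selenoprotein H of the nucleolus, was at -0.16 (adjusted p = 0.691). Gpx2, the peroxidase of the gut epithelium, was at -0.90 ± 0.87 (SE, edgeR adjusted p = 0.687) on mean levels of 0.370 CPM (Sham) and 0.197 CPM (PHx). The signs of Txnrd3, Sepw1, Selt and Selm turned under at least 1 alternative.

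**Figure D4:**
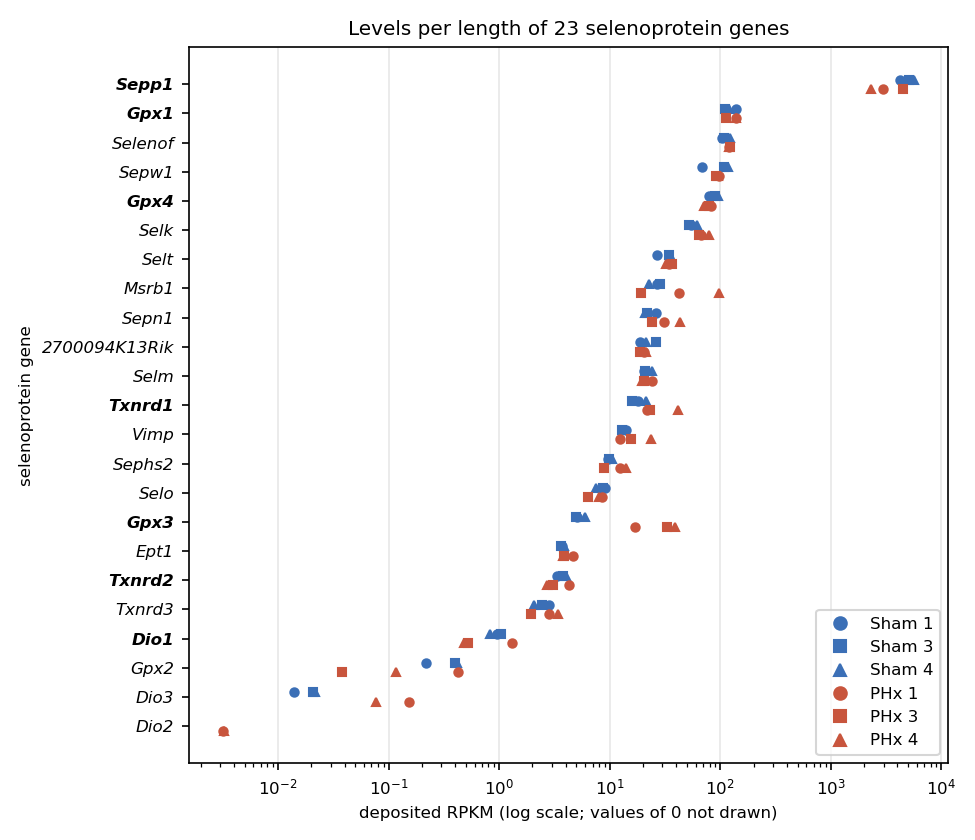
RPKM of the matched selenoprotein genes in each library on a log axis, ordered by their Sham mean, with values of 0 not drawn. Sepp1 stands alone at the top (mean 4972 RPKM in Sham and 3252 RPKM in PHx), and Gpx3 is the gene whose PHx points stand farthest from its Sham points among those above 1 RPKM.

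In the order of levels per length, Sepp1 came first in both groups, at 4972 ± 678 RPKM in Sham and 3252 ± 1146 RPKM in PHx (SD, n = 3). Gpx1, Selenof, Sepw1 and Gpx4 followed in Sham, at 122, 112, 98.0 and 88.5 RPKM, and each overlapped its neighbour in range. Txnrd1 was at position 12 in Sham, in a run from Selt to Txnrd1 in which neighbours overlapped, and Gpx3 was at position 16, apart from both neighbours. In PHx, Gpx3 was at position 10 and overlapped Sepn1 and Txnrd1, its neighbours there. Txnrd2 was at position 18 and Dio1 at position 20 in both groups. Dio1 did not overlap either neighbour, Txnrd3 above it and Gpx2 below it.

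The genes that make and insert selenocysteine were 13 in the list. Of these, 0 were past an adjusted p of 0.05 in edgeR (0.862% over all genes) and 0 in DESeq2. At an unadjusted p under 0.05 in edgeR there were 0 (12.7% over all genes). Their median log2 fold change was -0.06, with 1 above 0 and 12 below. The value above 0 belonged to Ncl, a nucleolar RNA-binding protein, at 0.44 ± 0.24 (SE, edgeR adjusted p = 0.487). Secisbp2l, a relative of the hairpin-binding protein, had mean levels of 119.7 CPM (Sham) and 115.7 CPM (PHx), and the ribosomal protein gene Rpl30 of 85.02 and 82.33 CPM.

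The receptors that take up selenoprotein P had a median log2 fold change of 1.55 over 3 genes, all above 0. Lrp1, which also serves as a general scavenger receptor and is the abundant one here, stood at 460.8, 300.7 and 251.5 CPM in Sham and at 455.4, 483.9 and 469.1 CPM in PHx. Sham 1 lay among the PHx values, and the log2 fold change was 0.48 ± 0.22 (SE, edgeR adjusted p = 0.413). Lrp2, known from the kidney, averaged 1.29 ± 0.705 CPM (Sham) and 3.80 ± 0.737 CPM (PHx; SD, n = 3), with no overlap and a log2 fold change of 1.55 ± 0.44 (SE, edgeR adjusted p = 0.211). Lrp8, known from brain and testis, went from 0.607 to 1.80 CPM, and PHx 3 lay within the Sham range (adjusted p = 0.345). Of the 3, 0 were past the threshold in edgeR (0.862% over all genes), and 1 (Lrp2) was past it in DESeq2. In edgeR 2 had an unadjusted p under 0.05 (12.7% over all genes). Over all genes, DESeq2 called 719 higher and 122 lower, against 161 and 3 in edgeR. Those larger totals stand beside each DESeq2 call in the lists below.

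The partners of the thioredoxin reductases were thioredoxins, peroxiredoxins, glutaredoxins and their regulators. Of 14 tested, 0 were past the threshold in edgeR (0.862% over all genes) and in DESeq2. In edgeR 1 had an unadjusted p under 0.05 (12.7% over all genes). Their median log2 fold change was 0.15, with 8 above 0 and 6 below. Txnip, an inhibitor of thioredoxin, was the abundant member, at 1449, 1748 and 1337 CPM in Sham and at 1020, 1253 and 580.2 CPM in PHx. All its PHx libraries lay below the Sham libraries, and its log2 fold change was -0.67 ± 0.28 (SE, edgeR adjusted p = 0.380). Prdx1 and Prdx2, peroxiredoxins of the cytosol, were at 0.18 and 0.16 (adjusted p = 0.566 and 0.495).

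Glutathione, the electron donor of the peroxidases, was covered by 18 tested genes for its synthesis, transport and use. 0 were past the threshold in edgeR (0.862% over all genes) and in DESeq2, and 4 had an unadjusted p under 0.05 (12.7% over all genes). The median log2 fold change was 0.15, with 11 above 0 and 7 below. The most abundant were Slc3a2, a subunit of amino acid transporters, Gstm1 and Gstp1, glutathione transferases, with log2 fold changes of -0.16, -0.08 and -0.43 and edgeR adjusted p of 0.742, 0.785 and 0.438.

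Superoxide dismutases and catalase act before and beside the peroxidases. Of the 5 genes, 0 were past the threshold in edgeR (0.862% over all genes) and 1 (Sod3) was past it in DESeq2. In edgeR 1 had an unadjusted p under 0.05 (12.7% over all genes). Sod3, the extracellular superoxide dismutase, stood at 285.0, 187.2 and 165.9 CPM in Sham and at 727.6, 441.2 and 1227 CPM in PHx. All PHx libraries lay above the Sham libraries, with a log2 fold change of 1.91 ± 0.41 (SE, edgeR adjusted p = 0.124). Sod3 and Gpx3 both encode secreted antioxidant enzymes, and both were measured beside the higher stellate markers of the PHx libraries, whose part in the Sod3 value was not tested. The median over the 5 genes was -0.25. The intracellular Cat and Sod1 each had a log2 fold change of -0.25 (edgeR adjusted p = 0.592 and 0.427).

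Among NRF2, its inhibitor and its targets, 20 genes including Txnrd1, 1 was past the threshold as higher in edgeR, against 0.846% of all genes tested. An unadjusted p under 0.05 in edgeR was held by 3 of them (12.7% over all genes). Me1, the cytosolic malic enzyme that supplies NADPH, went from 10.2, 9.72 and 9.08 CPM in Sham to 21.5, 16.8 and 19.2 CPM in PHx. All PHx libraries lay above the Sham libraries, with a log2 fold change of 0.98 ± 0.15 (SE, edgeR adjusted p = 0.0363). It was not past the threshold when any 1 of the 6 libraries was left out. The median over the 20 genes was 0.18, with 14 above 0 and 6 below.

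Gpx4 is known as the guard against lipid peroxide damage, and 14 genes of that process were tested. 0 were past the threshold in edgeR (0.862% over all genes) and in DESeq2. In edgeR 2 had an unadjusted p under 0.05 (12.7% over all genes), and the median log2 fold change was 0.10. The most abundant over the 6 libraries were Por, which passes electrons to P450 enzymes, Ncoa4, which delivers ferritin for degradation, and Ptgs2, the inducible cyclooxygenase. Their log2 fold changes were 0.24, 0.05 and 1.62, with edgeR adjusted p of 0.583, 0.904 and 0.497. Ptgs2 was among them only through its PHx values, since its Sham mean (24.95 CPM) was below that of Lpcat3 (47.5 CPM). Ptgs2 stood at 44.6, 19.7 and 10.6 CPM in Sham and at 81.7, 18.6 and 128.8 CPM in PHx, with overlap (SE 0.86).

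Thyroid hormone transport and response genes, set beside Dio1, gave 0 calls of 10 tested in edgeR (0.862% over all genes) and 1 (Thrsp) in DESeq2. In edgeR 3 were at an unadjusted p under 0.05 (12.7% over all genes). Their median log2 fold change was -0.18. Among the abundant members were Ncor1, a corepressor, and Klf9, a hormone-induced factor, with log2 fold changes of 0.03 and 0.02 and edgeR adjusted p of 0.928 and 0.975. Thrsp, a hormone-responsive gene of fat synthesis that is named because DESeq2 called it and so was chosen after its values were seen, stood at 7.71, 8.21 and 8.35 CPM in Sham. It stood at 3.38, 4.28 and 2.44 CPM in PHx, below every Sham library, with a log2 fold change of -1.26 ± 0.26 (SE, edgeR adjusted p = 0.0818).

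**Figure D5:**
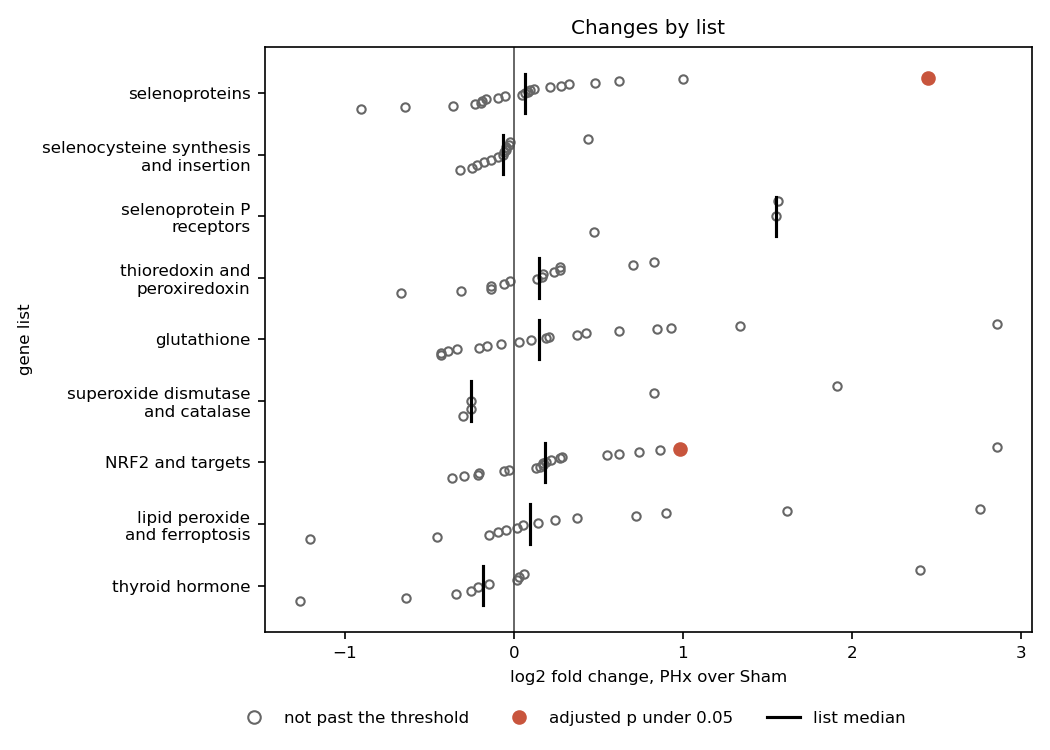
Log2 fold changes (PHx over Sham, horizontal axis) of the tested genes of 9 lists, 1 point per gene, with a vertical bar at each list's median. Filled points are past an adjusted p of 0.05 in edgeR: Gpx3 among the selenoproteins and Me1 among NRF2 and its targets.

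The genes whose levels followed each of the 7 most closely over the 6 libraries were found by Pearson's r of log2 CPM among 9357 genes with a mean of at least 10 CPM. With 6 libraries in 2 groups such values come high for many genes, and they are given as descriptions. Sepp1 was followed by Manba, Rpap3 and Cnr2 (r of 0.9996, 0.9991 and 0.9973), and 183 genes exceeded an r of 0.95 with it. Gpx3 was followed by Fmn1, Arfgef1 and Nlk (0.9945, 0.9921 and 0.9913), with 64 genes over 0.95, and Gpx4 by Fam73a, Bckdha and Auh (0.9960, 0.9846 and 0.9829), with 45. Txnrd1 had 128 such genes, led by Marcksl1, Etf1 and Arpc2 (0.9973, 0.9949 and 0.9937). Txnrd2 had 16, led by Gm3934, Bcl2l12 and Akr1e1 (0.9913, 0.9859 and 0.9768), and Dio1 had 45, led by Gstz1, Tbl3 and Gid8 (0.9961, 0.9928 and 0.9919). Gpx1, whose level varied little, had 3, Atg16l2, Twf2 and Aspscr1 (0.9763, 0.9686 and 0.9548).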

How the data were processed

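The deposited table holds whole-number counts and RPKM values for every gene in each library. Reads were handled with bcl2fastq and with TopHat2, version 2.0.13, on mm10 (GRCm38), per the submitters' processing notes. How they were counted, whether by strand, and with which annotation release are not given in the sources used here. The deposited RPKM values equalled the count scaled by the table's gene length and the library's summed counts in 100% of values (relative tolerance 1e-06). 27 gene names that had become dates were restored through the table's Entrez numbers. Of 215 list entries, 213 were matched.

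The counts of 3 Sham and 3 PHx libraries entered an edgeR fit (version 4.0.16, under R 4.3.3; filterByExpr, TMM scaling, robust quasi-likelihood F-tests, group as the only term), with Benjamini-Hochberg adjustment over the 19033 genes tested and a threshold of 0.05. Each SE is the size of the log2 fold change over the root of its F statistic, and CPM are TMM-scaled. For a gene without counts the upper limit is 3 counts (0.0578 to 0.0774 CPM by library), for counting error only. No 2 libraries of the same group were copies of each other (chi-square per degree of freedom of at least 55.6). Pairs across the groups were not compared.

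The 7 genes and all gene lists were chosen with earlier results of these data known. Genes named are the 7, the other tested selenoproteins, each list's called genes or else its 3 most abundant, and the 3 genes most like each of the 7; some items are not reported here. Selenocysteine codons were read from GENCODE M21 on GRCm38. Alternatives were other scaling factors, other filters, DESeq2 1.42.0, limma-voom 3.58.1, a replicate block, a hepatocyte marker covariate and each library left out in turn. A neutrophil marker covariate, both libraries numbered 4 left out, and levels per 1000 CPM of a marker list were added after seeing the data.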

Additional observations from a re-analysis of the deposited data

How the results depend on the processing

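Over all genes, 161 were higher and 3 lower after PHx. DESeq2 called 719 and 122, the fit of unfiltered genes 359 and 30, that with the hepatocyte marker covariate 37 and 1, and that without both libraries numbered 4 called 24 and 1. Over the 6 fits that each left out a library, 0 to 160 were higher and 0 to 9 lower. Both were 0 without Sham 4, where 1240 genes were higher and 1001 lower at an unadjusted p under 0.05 in edgeR.

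Gpx3, the 1 selenoprotein and the 1 of the 7 genes that was higher, left 0 under limma-voom, the hepatocyte and the neutrophil marker covariates and without both libraries numbered 4, and 0 to 1 over the libraries left out in turn (0 without Sham 1, Sham 3, Sham 4 or PHx 3). Its direction held throughout, on the contrast the genes were chosen with. Me1, the 1 higher NRF2 target, left 0 under both covariates, without both libraries numbered 4 and, in the range from 0 to 0, without any library. DESeq2 added 1 higher receptor of selenoprotein P (Lrp2), 1 higher superoxide dismutase (Sod3, also 1 with the neutrophil covariate) and 1 lower thyroid hormone gene (Thrsp, also 1 with no filter). Signs turned only among small differences. Gpx1 ranged from -0.058 to 0.131 over the libraries left out, and stood at -0.0552 with the neutrophil covariate and -0.0471 without both libraries numbered 4. Txnrd3 ranged from -0.0936 to 0.283, and stood at -0.164 and -0.212 under those settings. Sepw1 ranged from -0.318 to 0.029 and Selt from -0.060 to 0.101, and without both libraries numbered 4 Sepw1 stood at 0.0406 and Selm at 0.0661. The causes were not tested.

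Libraries with the same number did not deviate together (correlations of -0.09, -0.23 and 0.03), and none correlated best with its own number. With the number as a replicate block, 14 genes were higher and 1 lower, and 0 selenoproteins and 0 NRF2 targets were past the threshold. Dio1 and Gpx2 rest on few counts, which limits their precision.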

Other observations

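Selenbp1 and Selenbp2, neighbouring genes for selenium-binding proteins that contain no selenocysteine, were looked at after their values were seen. Selenbp2 stood at 24.5, 23.1 and 30.1 CPM in Sham 1, 3 and 4 and at 29.2, 13.3 and 0.791 CPM in PHx 1, 3 and 4, so PHx 4 held only 38 counts against 649 to 1511 in the other libraries. Its log2 fold change was -0.84 ± 1.08 (SE, edgeR adjusted p = 0.772). Selenbp1 stood at 21.4, 20.7 and 20.5 CPM in Sham and at 23.9, 21.6 and 30.3 CPM in PHx, with a log2 fold change of 0.28 ± 0.15 (SE, edgeR adjusted p = 0.485). The transcripts are near-identical copies, so reads could be split between them.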
